A study of Mus musculus with 7 samples.

Results

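The proteasome is the protease that breaks down ubiquitin-tagged proteins, and its subunits and assembly factors were followed here at the mRNA level through the day in mouse liver. The genes were taken by symbol: every probe set with a single gene symbol that began with Psma, Psmb, Psmc, Psmd, Psme, Psmf or Psmg and a number, represented by the probe set with the highest mean over the 7 arrays and kept where that mean was above 85 units (the deposited log2 values turned back to the natural scale). Of 50 symbols that matched, 46 were above this minimum, out of 10966 genes on the arrays that were. One of the 46, Psme3ip1, encodes a protein that binds an activator and is no part of the complex (mean 309 units, fitted amplitude 0.06, adjusted p = 0.699). It was kept out of the summaries, which therefore cover 45 genes. The 4 symbols at or below the minimum were Psma8 (34 units), Psmb11 (52 units), Psmg3 (64 units) and Psmc3ip (67 units). Psma8 is the testis form of an alpha subunit, Psmb11 is the thymus form of a catalytic subunit, Psmg3 is an assembly chaperone, and Psmc3ip is a recombination factor with a similar symbol. The lowest genes above the minimum were Psmg4 at 180 units and Psmb8 at 228 units, so the limit fell in a gap.

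Livers of male C57/BL6 mice, 9 to 11 weeks old when housing began and thus about 12 to 14 weeks old at collection, were taken at zeitgeber time (ZT) 2, 6, 10, 14, 18, 22 and 26, where lights went on at ZT0 and off at ZT12 and ZT26 is the clock time of ZT2 one day later. The mice had lived under 12 h of light per day for 2 weeks and for the last 7 days had food only between ZT12 and ZT24, so darkness and food access cannot be told apart. The organs were rinsed with PBS through the vessels before the RNA was taken. Each time point was 1 array with 1 RNA pool of 5 mice, and no time point had a second array, so the spread between pools was not measured. The ZT02, ZT06, ZT10 and ZT26 arrays are called light and the ZT14, ZT18 and ZT22 arrays dark.

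The array medians lay between 6.37 and 6.40 in log2 and each array correlated with the other arrays at 0.991 to 0.993 on average. The 8 hepatocyte markers with a probe set, such as Alb and Apoa1, were all above the minimum and their summed level varied 1.03-fold over the arrays, whereas the 5 neutrophil markers were all below it. The whole liver was sampled, so fewer cells of a type and less RNA per cell cannot be told apart in any value given here.

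As background, the core particle (20S) is a barrel of stacked rings. The outer rings are made of alpha subunits, which gate the entrance, and the inner rings of beta subunits, some of which carry the proteolytic sites. The regulatory particle (19S) caps the barrel: its base unfolds substrates with a ring of ATPases, and its lid removes the ubiquitin chains. Dedicated chaperones put both particles together, and immune stimuli exchange the catalytic subunits for the immunosubunits. In mammals the subunit genes are known to be induced together by the transcription factor encoded by Nfe2l1 when proteolysis is impaired.

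None of the 45 proteasome genes passed the test for a 24-h rhythm. The test fitted a cosine with a period of 24 h to the log2 values in limma and adjusted p over 12076 probe sets, of which 4.47% were called at an adjusted p under 0.05. At an unadjusted p under 0.05 there were 10 of 45 proteasome genes, against 25.7% of the tested probe sets. The lowest adjusted p belonged to the lid subunit Psmd11 (0.0679). The fitted amplitude, which is the distance in log2 from the mean to the peak, had a median of 0.086 over the proteasome genes (quartiles 0.05 and 0.12) and of 0.094 over all tested genes (quartiles 0.05 and 0.17). Highest over lowest array was 1.18-fold in the median proteasome gene and 1.25-fold in the median tested gene. It was above 1.5-fold in 3 of 45 proteasome genes, Psmb9, Psma3 and Psmb8, against 16.6% of tested genes. For scale, 11 of 14 clock genes on the arrays were called, with a median amplitude of 1.17. With one array left out the called clock genes numbered 2 (without ZT02) to 12 (without ZT22).

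Many of the proteasome genes departed from their own mean in the same direction on the same arrays, although none passed the test. The heat map of the 45 genes shows the ZT06 column mostly above each gene's own mean and the ZT10, ZT14 and ZT18 columns mostly below it.

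**Figure D1:**
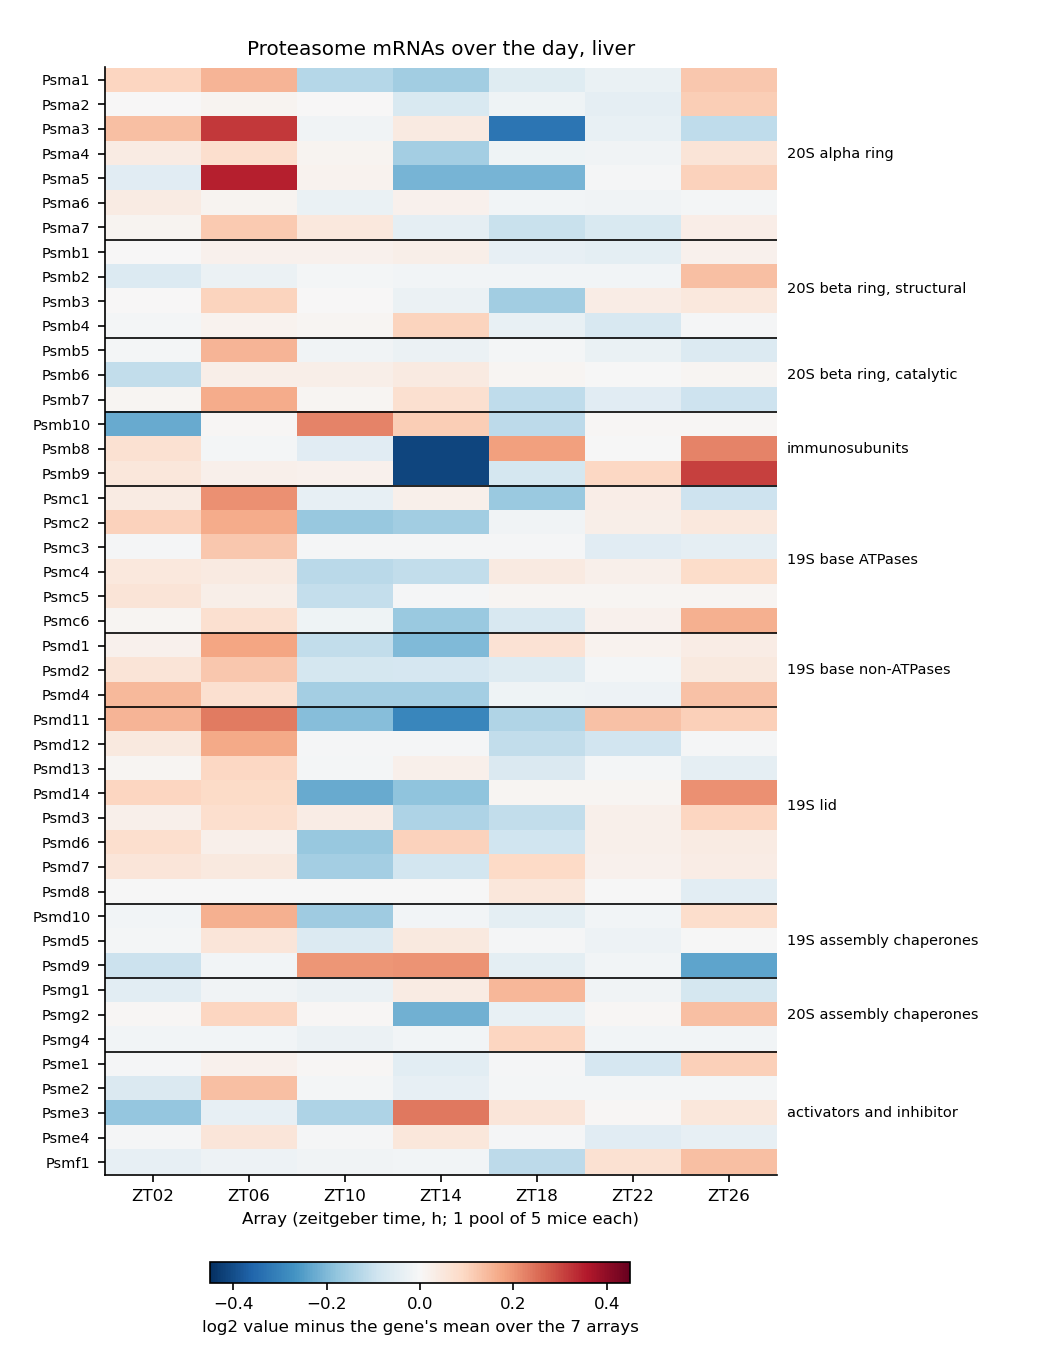
Each row is one of the 45 proteasome genes, grouped by subcomplex, and each column is 1 array from ZT02 to ZT26. Colour gives the log2 value minus the gene's mean over the 7 arrays, red above and blue below, and 37 of 45 genes are above their own mean at ZT06.

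Set against each gene's own mean, the 45 genes averaged 0.01 in log2 at ZT02, 0.08 at ZT06, -0.04 at ZT10, -0.05 at ZT14, -0.04 at ZT18, -0.01 at ZT22 and 0.04 at ZT26. The same average over all tested genes stayed between -0.03 at ZT02 and 0.02 at ZT26, and was 0.00 at ZT06 and at ZT10. The SD over the 45 genes was 0.09 at ZT06 and 0.13 at ZT14, so single genes departed from the average by more than its whole range of 0.13. ZT06 was the highest array in 20 of 45 proteasome genes, against 13.5% of tested genes, and the lowest array in none, against 11.1%. No proteasome gene was highest at ZT22, against 8.44% of tested genes. The lowest array was ZT10 in 12 of 45 genes (17.6% of tested genes), ZT14 in 10 (17.7%) and ZT18 in 9 (14.4%).

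The step between ZT06 and ZT10 was shared by more genes than any other step between neighbouring arrays. The ZT10 value was below the ZT06 value in 40 of 45 proteasome genes, against 48.4% of tested genes, and it was lower by more than 0.1 in log2 in 22 of 45, against 24.9%. The median difference was -0.10 in the proteasome genes and 0.00 in all tested genes. The 40 genes include all 7 alpha subunits, all 6 ATPases, the 3 other base subunits and 7 of 8 lid subunits. The other 5 genes were Psmb10 (0.22 higher at ZT10), Psmd9 (0.21 higher), Psmb2 (0.02 higher), Psmf1 (0.01 higher) and Psmd8 (equal). Markers of other cell types were lower over the same step. ZT10 was below ZT06 in 11 of 11 Kupffer cell markers (median -0.28), 7 of 7 stellate cell markers (median -0.18) and 3 of 3 markers of T, B and NK cells (median -0.16), and also in the single cholangiocyte marker and the single erythroid marker above the minimum. The figures were 5 of 8 for hepatocyte markers and 4 of 7 for endothelial markers (median -0.01 each), and 0 of 4 for dendritic cell and class II markers. The part of these cells in the step was not tested. The count of 40 was looked for after the profiles had been seen, and it rests on 1 pool at each time.

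**Figure D2:**
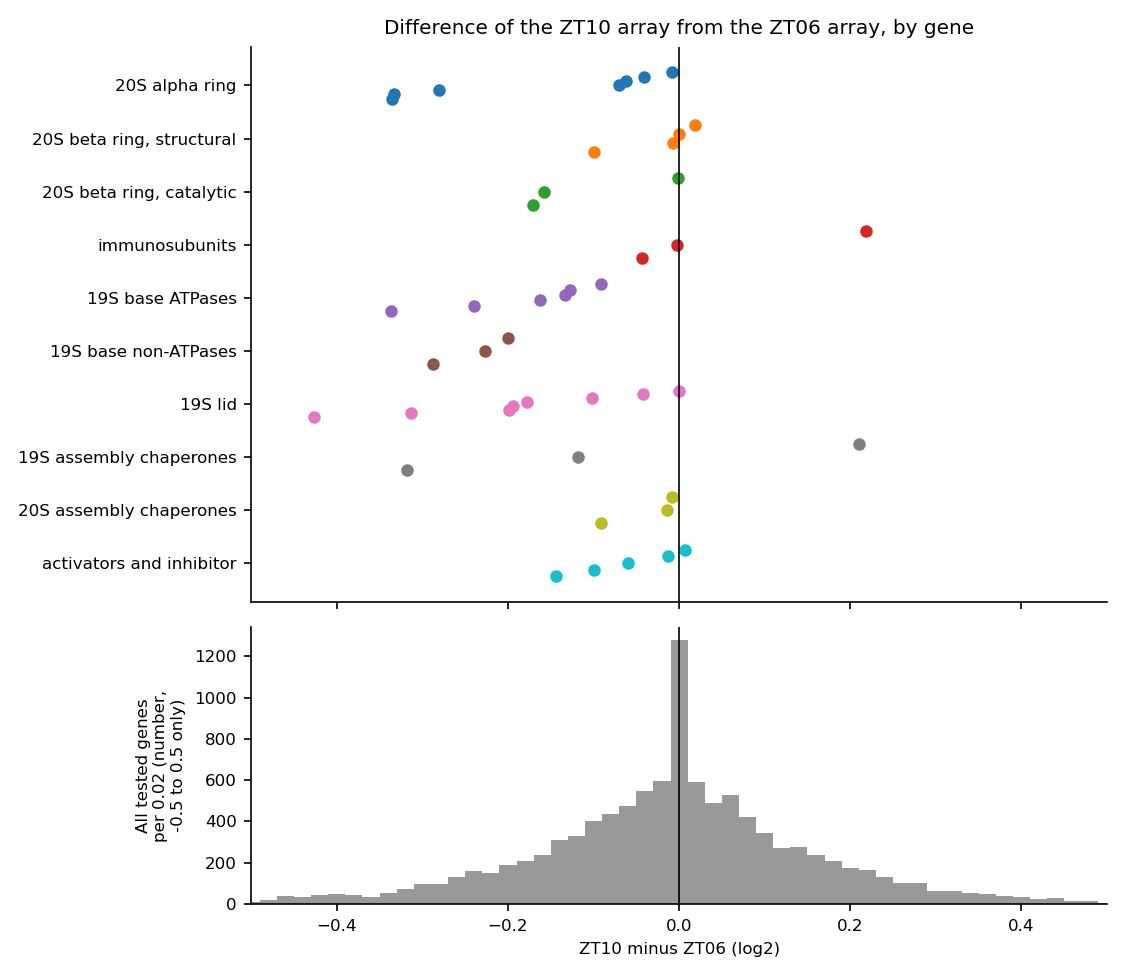
The upper panel plots, for each of the 45 proteasome genes by subcomplex, the log2 value at ZT10 minus that at ZT06, and the lower panel is a histogram of the same difference over the tested genes. Of the 45 genes 40 lie left of 0, and the medians are -0.10 for proteasome genes and 0.00 for all tested genes.

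Against the arrays at the other light times the ZT10 values were less one-sided. They were below ZT02 in 24 of 45 proteasome genes (41.5% of tested genes) and below ZT26 in 29 of 45 (50% of tested genes). ZT06 was itself above ZT02 in 34 of 45 proteasome genes (56.1% of tested genes). ZT02 and ZT26 are the only repeat of a clock time, from different mice. The median difference between them, taken without its sign, was 0.05 in the proteasome genes and 0.09 in all tested genes, and ZT26 was the higher in 25 of 45 proteasome genes, against 63.5% of tested genes.

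The fitted peak times were also unevenly spread over the day. Their circular mean was 4.47 h after lights on with a resultant length of 0.486, a measure that is 1 where all peaks coincide and 0 where they are spread evenly. Over all tested genes it was 0.0202, so that the mean peak of 11.7 h there describes no common time. A fitted peak between ZT0 and ZT8 was found in 30 of 45 proteasome genes, against 33% of tested genes, with a window that was set after the peaks had been seen. Without the ZT06 array the count was 22 of 45 (32.1% of tested genes) and the resultant length 0.289, so the shared timing leaned on that array. The median standard error of a peak time was 1.87 h, and 16 of 45 genes correlated above 0.7 with the mean of the others over the 7 arrays, 8 below 0. All members share the same pools, so these correlations are descriptions of these 7 arrays.

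**Figure D3:**
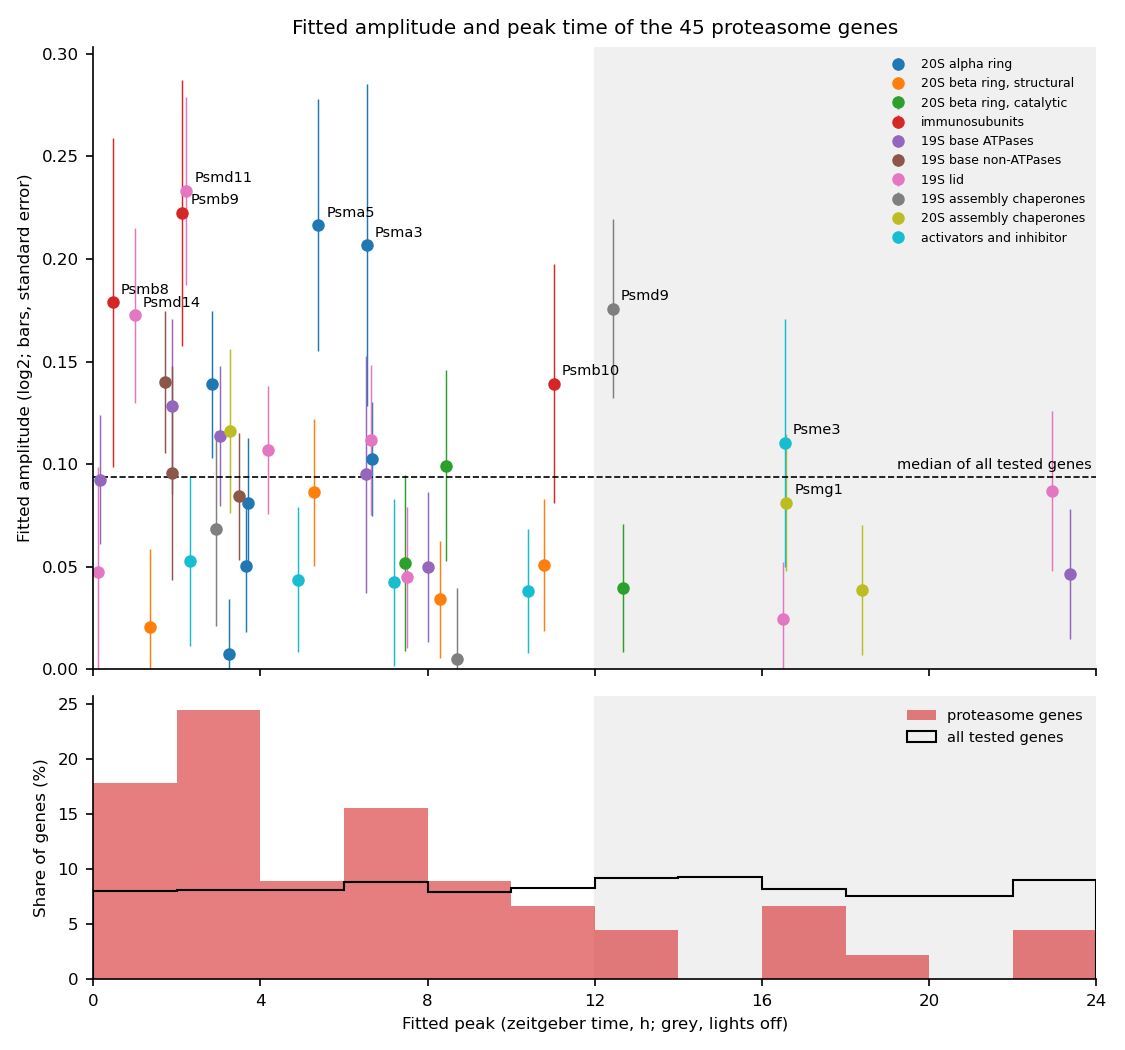
Above, the fitted amplitude in log2 (bars, standard error of the fit) of each of the 45 proteasome genes against its fitted peak in h after lights on, coloured by subcomplex. Below, the share of genes per 2 h of peak time for the proteasome genes (red) and all tested genes (outline). The points crowd between ZT0 and ZT8, where 30 of 45 peaks fall, and the largest amplitude is 0.23, that of Psmd11.

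The dark arrays lay below the light arrays on average in 35 of 45 proteasome genes, against 49.1% of tested genes. The median dark minus light difference was -0.04 in log2 in the proteasome genes and 0.00 in all tested genes. No proteasome gene passed the limma test of this difference, nor did any of the 12076 probe sets (0%). At an unadjusted p under 0.05 limma took 2 of 45, against 11.2% of the tested probe sets. They were Psma7, at -0.12 (adjusted p = 0.403), and Psmd3, at -0.13 (adjusted p = 0.423). An exact permutation test over the 35 ways to choose 3 of 7 arrays can reach p = 0.0286 at the least, and 3 of 45 genes did, against 4.89% of tested genes (lowest adjusted exact p over all probe sets 0.541).

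The 4 genes with the largest amplitudes belong to 3 subcomplexes, the lid (Psmd11), the immunosubunits (Psmb9) and the alpha ring (Psma5 and Psma3). With no gene called, the plan was to show the promoters of the 4 largest amplitudes. No other proteasome gene had an amplitude above 0.20. Each promoter is the RefSeq window on GRCm38.p6 from 250 bases before to 50 bases after the transcript start, read along the gene. Capitals mark matches to the motifs searched. Psmd11 lies at chr11:80428365-80428664 on the plus strand, Psmb9 at chr17:34187281-34187580 on the minus strand, Psma5 at chr3:108256676-108256975 on the plus strand and Psma3 at chr12:70974373-70974672 on the plus strand.
Psmd11: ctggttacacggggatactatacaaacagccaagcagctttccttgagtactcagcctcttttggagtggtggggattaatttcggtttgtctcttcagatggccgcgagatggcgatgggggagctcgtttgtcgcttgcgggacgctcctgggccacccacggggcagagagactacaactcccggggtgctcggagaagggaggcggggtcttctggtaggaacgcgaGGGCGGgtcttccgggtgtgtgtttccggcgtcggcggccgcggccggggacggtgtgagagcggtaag
Psmb9: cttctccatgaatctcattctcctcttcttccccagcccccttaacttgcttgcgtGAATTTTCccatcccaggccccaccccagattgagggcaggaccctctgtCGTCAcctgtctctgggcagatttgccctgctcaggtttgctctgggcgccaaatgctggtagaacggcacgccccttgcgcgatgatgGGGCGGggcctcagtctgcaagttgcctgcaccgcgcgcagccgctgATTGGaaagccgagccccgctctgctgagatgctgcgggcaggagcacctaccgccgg
Psma5: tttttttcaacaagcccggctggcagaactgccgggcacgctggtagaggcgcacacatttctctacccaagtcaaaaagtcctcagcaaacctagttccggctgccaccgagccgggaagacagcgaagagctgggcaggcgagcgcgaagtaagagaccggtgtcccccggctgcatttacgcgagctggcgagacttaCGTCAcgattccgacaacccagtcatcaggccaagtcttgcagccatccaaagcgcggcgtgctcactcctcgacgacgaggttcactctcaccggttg
Psma3: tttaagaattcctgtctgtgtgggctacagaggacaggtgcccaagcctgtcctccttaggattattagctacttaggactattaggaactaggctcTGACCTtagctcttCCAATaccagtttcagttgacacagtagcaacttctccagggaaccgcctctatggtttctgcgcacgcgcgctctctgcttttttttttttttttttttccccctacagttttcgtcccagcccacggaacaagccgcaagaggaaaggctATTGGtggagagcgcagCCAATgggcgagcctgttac
In the Psmd11 window the one match was a GC box, GGGCGG, 19 bases before the start. Psmb9 held a GC box at 55 bases before the start, with a CCAAT box (read as ATTGG), a CRE core (read as CGTCA) and an HSE core. Psma5 held a single CRE core at 49 bases before the start, and Psma3 held 3 CCAAT boxes and a RORE core (read as TGACCT). No motif was present in all 4 windows.

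The motifs searched on both strands were the ARE core TGACNNNGC, the CCAAT box CCAAT, the GC box GGGCGG, the E-box CACGTG, the D-box TTANGTAA, the RORE core AGGTCA, the ISRE core, the CRE core TGACG and the HSE core GAANNTTC. The ISRE core was GAAA and GAAA with 2 free bases between them. Of the 45 genes 38 had a window, with 41 windows in all. A CRE core was present in 48.8% of these 41 windows, against 30.3% of 11217 windows of tested genes and 20.8% of all 32851 windows. An ISRE core was present in 12.2%, against 2.89% and 3.44%, in Psmb3, Psmd4, Psmd9, Psme1 and Psmg4. For the GC box the shares were 58.5%, 61.6% and 35.7%, for the RORE core 24.4%, 13.4% and 16.3%, and for the ARE core 14.6%, 14.2% and 12.4%. The E-box, bound by the clock proteins, was present in 9.76% of proteasome windows, against 10.1% of windows of tested genes and 7.15% of all windows, and the D-box in none, against 1.54% and 2.32%. The CCAAT box was present in 31.7%, 36.8% and 37.4%, and the HSE core in 7.32%, 5.79% and 7.86%. The ARE and CRE letters overlap in TGAC, and a match is a description of letters only.

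The alpha ring had the most closely grouped fitted peaks of the larger subcomplexes. All 7 genes had a fitted peak between ZT0 and ZT8, against 33% of tested genes. The peaks had a circular mean of 4.56 h and a resultant length of 0.927. The standard error of the peak time had a median of 1.32 h over the 7 genes. It was 2.62 h in Psma2 and 15.7 h in Psma6, whose amplitude was 0.01 ± 0.03, so the peak time of Psma6 cannot be read. All 7 genes were lower on average in the dark than in the light, against 49.1% of tested genes. The median amplitude was 0.10 (0.094 in all tested genes), and 3 of 7 genes had an unadjusted p under 0.05, against 26.1% of tested genes. In expression units and in the order of the arrays from ZT02 to ZT26, Psma5 read 409, 540, 428, 366, 366, 422 and 455. ZT06 stood above every other array, and the lowest values were those of ZT14 and ZT18. The fit gave Psma5 an amplitude of 0.22 ± 0.06 in log2 (standard error) with a peak at 5.37 h (adjusted p = 0.149). Psma3 read 1925, 2183, 1733, 1799, 1394, 1711 and 1618 units and was likewise highest at ZT06, and lowest at ZT18. Highest over lowest was 1.57-fold in Psma3 (amplitude 0.21 ± 0.08, adjusted p = 0.266). Psma1 read 1632, 1697, 1397, 1372, 1472, 1497 and 1660 units, which puts ZT02, ZT06 and ZT26 above the other 4 arrays (adjusted p = 0.123). At the other end, Psma6 read 1871, 1837, 1785, 1849, 1808, 1804 and 1810 units, and its highest over lowest of 1.05-fold was the smallest among the 45 genes. Psma2, Psma4 and Psma7 lay between, at 1.13-, 1.17- and 1.16-fold.

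Psma3, Psma5, Psmb3, Psmc1 and Psmd2 had more than one probe set. The 3 of Psma3 correlated at 0.988 to 0.999 over the 7 arrays with amplitudes of 0.21 to 0.23. The second probe set of Psma5 had an amplitude of 0.12, against 0.22, and correlated with it at 0.833. For Psmb3, Psmc1 and Psmd2 the correlations were 0.835, 0.704 and 0.853. Near-identical copies in the genome can share probes with these genes, so their values are uncertain to that extent.

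**Figure D4:**
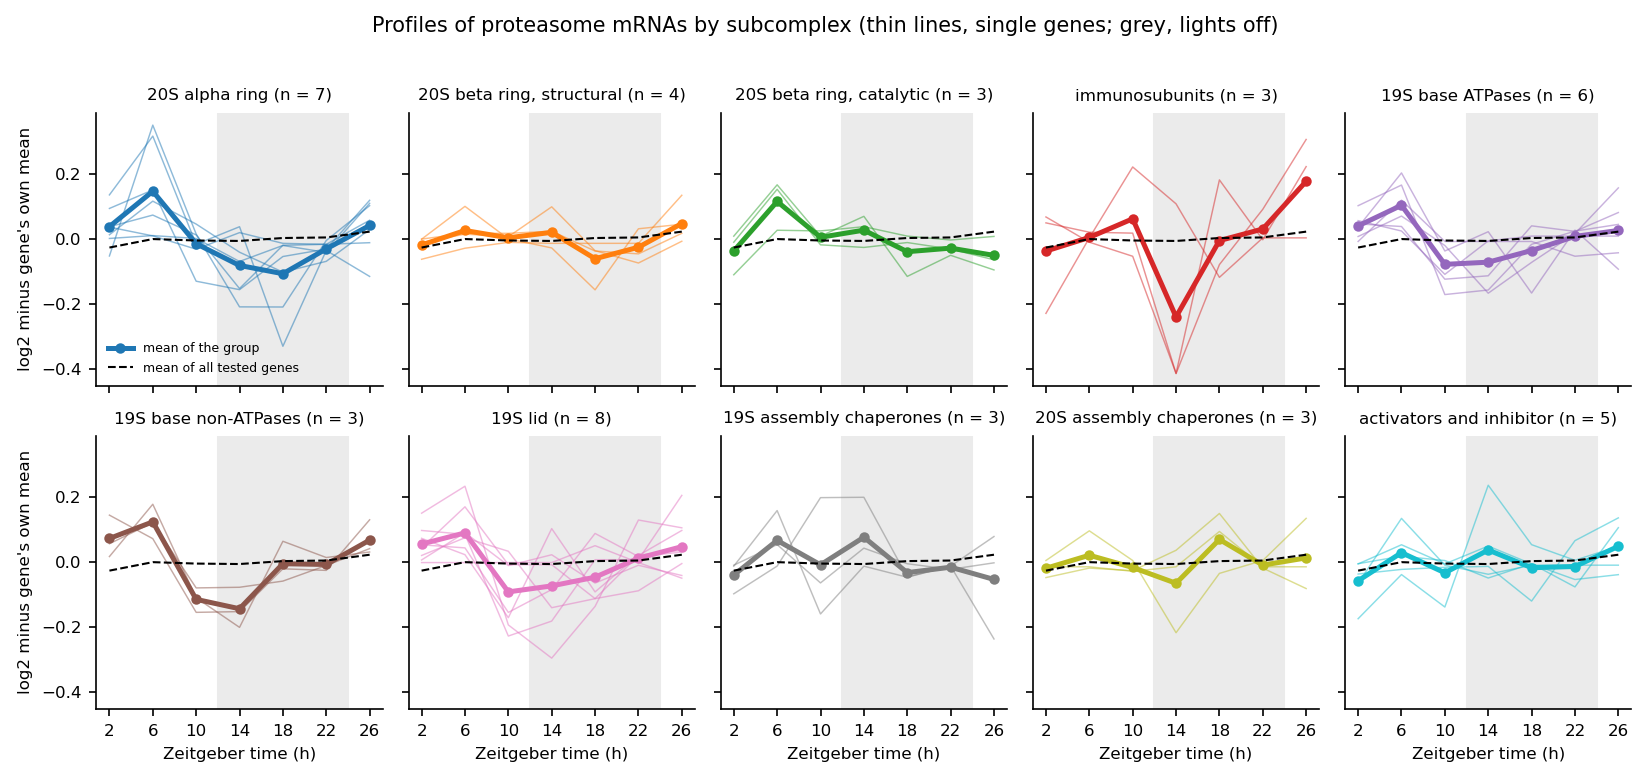
Each panel plots one subcomplex over ZT02 to ZT26, with thin lines for single genes, a thick line for their mean and a dashed line for the mean of all tested genes, all as log2 minus the gene's own mean. The grey band is the dark phase. The means of the alpha ring, base and lid are highest at ZT06 and below 0 from ZT10 to ZT18, while those of the structural beta subunits and the activators span 0.11 in log2.

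The beta subunits without a proteolytic site, Psmb1, Psmb2, Psmb3 and Psmb4, had a small median amplitude, 0.042, about that of the activators and inhibitor (0.044). Neither group had a gene with an unadjusted p under 0.05 (26.1% of tested genes). Psmb3 had the largest amplitude, 0.09 ± 0.04, and read 4813, 5162, 4819, 4723, 4319, 4924 and 4969 units. Its ZT06 value was the highest and its ZT18 value the lowest, with 1.20-fold between them (adjusted p = 0.313). The second probe set of Psmb3 was also highest at ZT06 but lowest at ZT14. Its amplitude was 0.043, below the 0.051 of Psmb4, so the ranking depends on the probe set. Psmb2 read 2287, 2341, 2370, 2365, 2365, 2365 and 2621 units, flat except for ZT26. Psmb1 varied 1.05-fold. Psmb4 was highest at ZT14 and correlated with the mean of the other genes at -0.20.

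The constitutive catalytic subunits Psmb5, Psmb6 and Psmb7 had fitted peaks with a circular mean of 9.43 h, against 4.56 h in the alpha ring, with a median standard error of 2.80 h. All 3 were higher at ZT06 than at ZT02, by 0.14 to 0.16 in log2. Psmb5, which carries the chymotrypsin-like site, read 3000, 3360, 2985, 2967, 2998, 2958 and 2890 units. The ZT06 array alone stood out, and the other 6 lay within 2890 to 3000 units (adjusted p = 0.691). Psmb7, with the trypsin-like site, read 1425, 1590, 1425, 1487, 1308, 1368 and 1326 units, again highest at ZT06 (amplitude 0.10 ± 0.05, adjusted p = 0.380). Psmb6, with the caspase-like site, read 1169, 1285, 1284, 1295, 1269, 1259 and 1269 units, where only ZT02 was low (adjusted p = 0.664).

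The immunosubunits had the largest median amplitude of the 10 groups, 0.18, but did not share one time course. Psmb8, which takes the place of Psmb5 in the immunoproteasome, read 237, 224, 218, 170, 256, 226 and 264 units. Psmb9, which takes the place of Psmb6, read 404, 397, 396, 293, 370, 416 and 483 units. Both were lowest at ZT14 and highest at ZT26, by 1.55-fold and 1.65-fold, and correlated with each other at 0.835 over the 7 arrays. The ZT14 array was 0.41 in log2 below the mean in both. Psmb10, which takes the place of Psmb7, read 538, 632, 736, 680, 581, 632 and 632 units, highest at ZT10 and lowest at ZT02. ZT26 lay above ZT02, the same clock time, by 0.16 in log2 in Psmb8, 0.26 in Psmb9 and 0.23 in Psmb10. None of these 3 genes passed the test, with adjusted p of 0.355 for Psmb8, 0.162 for Psmb9 and 0.316 for Psmb10.

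Set against its constitutive partner on the same array, Psmb8 minus Psmb5 ran from -0.39 at ZT14 to 0.29 at ZT26 in log2 about its own mean. Psmb9 minus Psmb6 ran from -0.45 at ZT14 to 0.30 at ZT26. Psmb10 minus Psmb7 ran from -0.24 at ZT02 to 0.21 at ZT10. The first and second differences thus had their low point at the start of the dark phase, and the other did not. The extremes at ZT02 and ZT26, the same clock time, were not repeated in size. From ZT02 to ZT26 Psmb8 minus Psmb5 went from 0.08 to 0.29 and Psmb9 minus Psmb6 from 0.16 to 0.30. Psmb10 minus Psmb7 went from -0.24 to 0.10.

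**Figure D5:**
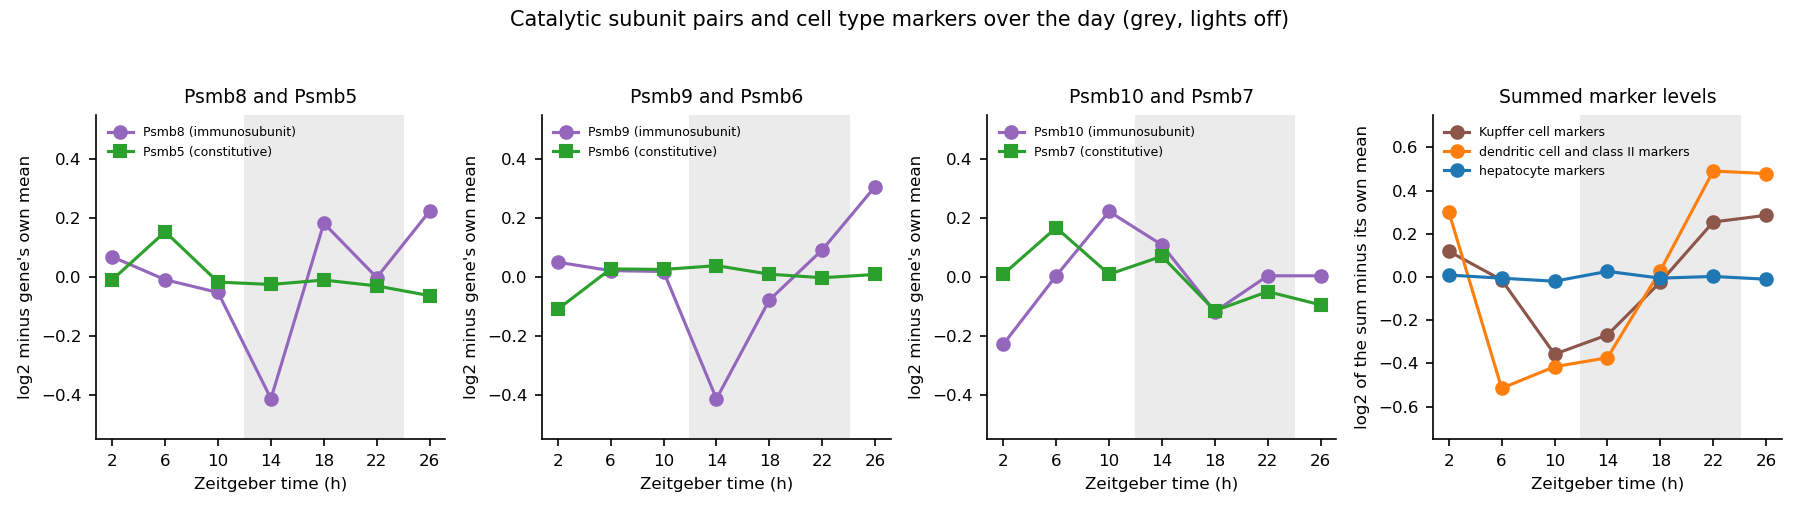
The first 3 panels plot each immunosubunit and its constitutive partner over ZT02 to ZT26 as log2 minus the gene's own mean, and the fourth panel plots the log2 of summed marker levels about their own mean. Psmb8 and Psmb9 lie at -0.41 at ZT14, Kupffer cell markers are low at ZT10 and ZT14, class II markers from ZT06 to ZT14, and hepatocyte markers vary 1.03-fold.

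Immunosubunits are strongly expressed by immune cells, so the markers of those cells are given beside them. Of 12 Kupffer cell markers with a probe set, 11 were above the minimum (Marco was not). All 12 summed to 8367, 7631, 6013, 6398, 7580, 9191 and 9390 units from ZT02 to ZT26, and 6 of 11 passed the test for a rhythm. Of 7 dendritic cell and class II markers 4 were above the minimum, whereas Itgax, Flt3 and Ciita were below it. These 7 summed to 3702, 2101, 2251, 2317, 3065, 4219 and 4184 units, and 3 of the 4 passed. With one array left out, 0 or 1 Kupffer cell markers passed, and the class II calls numbered 3 without ZT06 and 0 without any other array. Both sums were highest at ZT22 or ZT26, as Psmb8 and Psmb9 were at ZT26, whereas their low points differed. The Kupffer cell sum was lowest at ZT10 and ZT14, the class II sum was lowest at ZT06 and low through ZT14, and Psmb8 and Psmb9 stood low at ZT14 alone. Of 12 markers of T, B and NK cells with a probe set, 3 were above the minimum, and the sum of all 12 ran from 563 units at ZT14 to 782 units at ZT26. The part of these cells in the immunosubunit profiles was not tested.

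Psmb9 and the peptide transporter gene Tap1 start head to head on chromosome 17, with 225 bases between the annotated gene ends (Psmb9 chr17:34182030-34187330 on the minus strand, Tap1 chr17:34187556-34197225 on the plus strand, GRCm38.p6), so the Psmb9 window printed above reaches past the start of Tap1. Tap1 had an amplitude of 0.33 ± 0.07 with a peak at 1.09 h (adjusted p = 0.0724), and its values correlated with those of Psmb9 at 0.856 over the 7 arrays. Tap2, next to Psmb8, was flat at 1.05-fold and correlated with Psmb8 at 0.0702. Among 11 interferon response genes none passed the test and 8 had an unadjusted p under 0.05 (26.1% of tested genes). Their median amplitude was 0.29. At ZT10 10 of the 11 were below ZT06 (48.4% of tested genes), with a median of -0.12. At ZT18 10 of the 11 were above ZT14 (46.3% of tested genes), with a median difference of 0.46. Ifit1, Ifit3, Irf7, Irf9 and Gbp3 were lowest at ZT14 and highest at ZT26, as Psmb8 and Psmb9 were. The lowest array was ZT10 in Stat2, Irf1, Irf8, Irgm1 and Oas1a, and ZT06 in Cxcl9. The part of the interferon response in the immunosubunit profiles was not tested.

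The 6 ATPases of the base, Psmc1 to Psmc6, unfold the substrate and open the gate. All 6 were lower at ZT10 than at ZT06 (48.4% of tested genes), by 0.09 to 0.34 in log2. On average 5 of the 6 were lower in the dark (49.1% of tested genes). Psmc2 read 509, 531, 421, 425, 468, 482 and 489 units. It was highest at ZT06 and lowest at ZT10, with each dark array above the one before it (amplitude 0.13 ± 0.04, peak 1.89 h, adjusted p = 0.211). Psmc5 read 360, 352, 321, 345, 349, 349 and 349 units, with ZT10 the only low array (adjusted p = 0.589). Psmc6 had the lowest adjusted p of the 6 (0.172), peaked at 3.04 h and was lowest at ZT14. Psmc1, Psmc3 and Psmc4 varied 1.29-fold, 1.13-fold and 1.15-fold, with fitted peaks at 6.52 h, 8.01 h and 0.15 h.

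The other base subunits, the large scaffold proteins Psmd1 and Psmd2 and the ubiquitin receptor Psmd4, followed one profile more closely than any other group. Their pairwise correlations had a median of 0.785 over the 7 arrays, against 0.207 over all 990 pairs of proteasome genes, and their peaks a resultant length of 0.978 around 2.36 h. Psmd4 read 607, 577, 493, 494, 541, 539 and 601 units, high at ZT02, ZT06 and ZT26 and lowest at ZT10 and ZT14. Its amplitude was 0.14 ± 0.03, and its adjusted p was 0.112. Psmd2 read 2419, 2530, 2202, 2204, 2234, 2310 and 2394 units, also highest at ZT02, ZT06 and ZT26 (adjusted p = 0.253), and it correlated with the mean of the other proteasome genes at 0.959, the highest of the 45. Psmd1 read 2667, 2982, 2443, 2293, 2755, 2661 and 2693 units and was lowest at ZT14.

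The lid held the gene with the largest amplitude and one of the flattest. Psmd11, a scaffold subunit that contacts the core particle, read 1333, 1413, 1051, 979, 1093, 1314 and 1292 units. Its 3 lowest arrays were ZT10, ZT14 and ZT18, at 979 to 1093 units, and the other 4 read 1292 to 1413 units. This split was picked from these same values. The amplitude of Psmd11 was 0.23 ± 0.05 with a peak at 2.23 h (adjusted p = 0.0679), and highest over lowest was 1.44-fold. Psmd14, the enzyme that cuts ubiquitin chains from the substrate, read 1744, 1730, 1392, 1437, 1638, 1638 and 1879 units, low at ZT10 and ZT14 (amplitude 0.17 ± 0.04, peak 0.99 h, adjusted p = 0.113). Psmd3 and Psmd12 peaked at 4.19 h and 6.64 h, with adjusted p of 0.161 and 0.205. Psmd6, Psmd7 and Psmd13 had amplitudes of 0.05, 0.09 and 0.05. Psmd8 held the same deposited value, 1570 units, on 5 of 7 arrays, and read 1627 units at ZT18 and 1518 units at ZT26. Exact repeats were common in the set, with 10 of 45 genes at a single value on 3 or more arrays, which limits how finely small changes can be read.

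Among the assembly factors the timing was mixed. The base chaperone Psmd9 ran against the mean of the other proteasome genes, as did some others. It read 307, 326, 377, 377, 318, 326 and 279 units, with its highest values at ZT10 and ZT14. Its amplitude was 0.18 ± 0.04 with a peak at 12.4 h (adjusted p = 0.114), and it correlated with the mean of the other genes at -0.65, the lowest of the 45. Psmd10, which also escorts base ATPases, read 491, 553, 443, 491, 479, 491 and 523 units, highest at ZT06 and lowest at ZT10 (adjusted p = 0.603). Psmd5, the remaining base chaperone, was flat at 759, 793, 730, 787, 761, 752 and 762 units. The base chaperones thus differed from one another at ZT10, where Psmd9 was high and Psmd10 low.

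The chaperones of the core particle, Psmg1, Psmg2 and Psmg4, guide the assembly of the alpha ring. Psmg2 read 346, 368, 346, 296, 336, 346 and 378 units and was lowest at ZT14 (amplitude 0.12 ± 0.04, peak 3.27 h, adjusted p = 0.227). Its partner Psmg1 read 391, 399, 397, 414, 448, 399 and 382 units and was highest at ZT18, with a peak at 16.6 h (adjusted p = 0.305). The partners of this heterodimer thus had their highest arrays at different times, and neither passed the test. Psmg4 read 178 units on 5 of 7 arrays, 176 units at ZT10 and 192 units at ZT18 (adjusted p = 0.685).

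The activators open the core particle without the regulatory particle, and Psmf1 encodes an inhibitor. Psme3, which forms the nuclear activator ring, read 1411, 1550, 1446, 1875, 1653, 1598 and 1647 units. The ZT14 value was the highest, and ZT02, ZT06 and ZT10 were the 3 lowest. The dark minus light difference of Psme3 was 0.17 in log2, the largest positive one among the 45 genes (adjusted p = 0.459). Psme4, the large activator, read 1805, 1881, 1805, 1875, 1805, 1746 and 1765 units, within 1.08-fold (adjusted p = 0.666). The interferon-inducible pair Psme1 and Psme2 varied 1.13-fold and 1.15-fold, and Psmf1 1.19-fold, with adjusted p of 0.678, 0.754 and 0.666.

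Of 12 further proteasome parts and partners that the symbol rule misses, 7 had a probe set and none passed the test, nor had any an unadjusted p under 0.05. All 7 were lower at ZT10 than at ZT06 (48.4% of tested genes), by a median of 0.08 in log2. Pomp, the maturation factor of the core particle, had an amplitude of 0.08 ± 0.06 (adjusted p = 0.603), and Ecpas, which ties the 2 particles together, one of 0.09 ± 0.03 with a peak at 7.66 h (adjusted p = 0.235). Adrm1, a ubiquitin receptor of the base, had no probe set with a single symbol among those tested.

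The known regulators of proteasome genes did not share one peak time. The fitted peaks of Ngly1, Keap1, Nfyb, Foxo4 and Stat3 fell between ZT0 and ZT8, and those of the other tested regulators fell later. Nfe2l1 had an amplitude of 0.04 ± 0.03 with a peak at 13.4 h (adjusted p = 0.559), and Nfe2l2, the oxidative stress factor, one of 0.03 ± 0.03 (adjusted p = 0.692). None of 11 regulators passed the test, and 3 had an unadjusted p under 0.05 (26.1% of tested genes). The lowest adjusted p were those of Stat3 (amplitude 0.24 ± 0.05, peak 2.50 h, adjusted p = 0.0650) and Foxo3 (amplitude 0.26 ± 0.05, peak 12.0 h, adjusted p = 0.0663). Stat3 had a time course like that of the proteasome average, with its highest log2 value at ZT06 (10.74), its lowest at ZT14 (10.15) and a ZT10 value 0.38 below that at ZT06. At ZT10 4 of 11 regulators were below ZT06 (48.4% of tested genes), with a median difference of 0.02.

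Elsewhere in the ubiquitin system 1 gene passed, Ubxn1, which binds ubiquitin and the unfolding ATPase p97. It had an amplitude of 0.44 ± 0.04 with a peak at 3.57 h (adjusted p = 0.0123), in the same hours as the proteasome genes. The call was lost without the ZT02 array (adjusted p = 0.0643) and without the ZT14 array (adjusted p = 0.0606). The other 11 shuttle and p97 genes, the 21 conjugating enzymes and the 4 ligases of clock proteins that were tested had no call. Of 7 listed ubiquitin and E1 genes only Uba3 and Uba6 had a probe set with a single symbol, and neither was called. No gene for ubiquitin itself was tested. In the shuttle and p97 list 9 of 12 genes were lower at ZT10 than at ZT06 (48.4% of tested genes). The median difference was -0.15, and 6 of 12 had an unadjusted p under 0.05 (26.1% of tested genes). In the complexes that resemble the lid in build, the COP9 signalosome and eIF3, 11 of 20 genes were lower at ZT10 than at ZT06. This share was near the 48.4% of tested genes. The median difference was -0.01 and the median amplitude 0.05. For the TRiC chaperonin these figures were 5 of 8, -0.12 and 0.10. None of these genes was called, and 0 of 20 and 2 of 8 had an unadjusted p under 0.05, against 26.1% of tested genes.

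Fisher's test for one period without moderation is the study's own kind of test. At p under 0.25 and highest over lowest above 1.5-fold, 2 of 45 proteasome genes passed, Psma3 and Psmb9, against 13.8% of tested genes. The paper's selection also took genes by their Pol II rhythm and required Pol II loading above background. Neither was used here. No probe set passed Fisher's test after adjustment over 12076.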

How the data were processed

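The deposited values are log2 expression per probe set of the Mouse Gene 1.0 ST array, which the authors computed by RMA (per the submitters' processing notes, in version 1.1.2637.26569 of Affymetrix Expression Console), so background correction, quantile normalization and probe summary preceded all that is given here and a shift of a whole array is largely removed. Of 35556 probe sets 21789 carry 1 gene symbol, 1621 several and 12146 none in the annotation used. The 12076 with 1 symbol and a mean above 85 units were fitted in limma 3.58.1 (R 4.3.3, lmFit and eBayes) with cosine and sine terms of 24 h (moderated F-test, 4 residual degrees of freedom) and, separately, dark minus light. Adjusted p-values are Benjamini-Hochberg. The scripts were checked on simulated data. Counts over all genes used the probe set with the highest mean per gene (10966 genes). Members, lists and motifs were chosen with earlier results of these data known. Values on every array were planned for genes called, for the largest and smallest amplitude of each subcomplex and for the catalytic pairs, and Psma1, Psma3, Psmd1, Psmd10, Psmd14 and Psmg1 were added after their values were seen. Promoter windows are RefSeq's. Alternatives left out each array and varied the minimum, centring, variance prior, scale, probe set, drift and test. The sequencing of Pol II and histone marks was not analysed here. The number of arrays, 1 per time, limits the precision.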

Additional observations from a re-analysis of the deposited data

How the results depend on the processing

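No call of a proteasome gene appeared when each array was left out in turn or when the minimum, centring, variance prior, scale, probe set or drift was changed, and the lowest adjusted p among them was 0.0553 (minimum of 170 units). Fisher's test for one period at p under 0.25 and 1.5-fold took 2 genes in place of 0. Leaving out one array moved the mean peak time between 2.90 h (without ZT06) and 5.85 h (without ZT10), the median amplitude between 0.07 and 0.10, and the genes with a peak between ZT0 and ZT8 between 22 and 31. Over all tested probe sets 4.47% were called, between 0.108% (without ZT02) and 7.87% (arrays re-centred) under the alternatives. The count of 40 genes lower at ZT10 than at ZT06 was 42 with re-centred arrays, 24 with ZT02 and 29 with ZT26 in place of ZT06. The peak of a named gene moved by over 6 h in 5 of 286 cases, all in Psma6, Psmb2, Psmb5 and Psmd5. No paired analysis was possible because each time point has 1 array. The alternatives that swap the earlier array, and those with Psme3ip1, were chosen after seeing the data.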

Other observations

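The 10 genes outside the proteasome with profiles most like the mean of the 45 genes over the 7 arrays were Mdfic (r = 0.973), Tstd3, Cfhr3, Ipo11, Cmtm6, Gipc1, Gpatch2l, Mrnip, Atp6v1b2 and Tnfaip8l1 (r = 0.951), picked as the highest of all tested genes. Of these Mrnip had the largest amplitude, 0.79 ± 0.12 with a peak at 3.78 h (adjusted p = 0.0416), and it was the one gene of the 10 that passed the limma test. Without any one of the arrays its adjusted p was 0.0584 to 0.154, so this call was lost each time. Its log2 values from ZT02 to ZT26 were 8.88, 9.51, 8.35, 7.56, 8.07, 8.56 and 9.15.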
